A study of Homo sapiens with 8 samples.

Results

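The comparison of T387A with wild-type cells at 4 h of interferon-beta (IFN-β) used 2 of the 8 arrays of the study, 1 for each line. Its members were the genes whose intensity reached 50 on at least 1 of these 2 arrays, with the probe of the highest mean over the 8 arrays standing for each gene. Of 20045 genes with a named probe, 7559 met that rule. A gene that reached 50 on only 1 of the 2 arrays was by that rule higher on that array. The T387A 4 h group was U6A cells expressing STAT2 with the T387A substitution, and the wild-type 4 h group was U6A cells expressing wild-type STAT2. U6A is a human fibrosarcoma line without STAT2 of its own. Both groups were grown in DMEM with 5% FBS and given IFN-β at 100 IU/ml for 4 h. The study also holds arrays of both lines at 0, 8 and 24 h, 1 for each line and time, and these are used below to place the 4 h values. The sources used here do not say whether either line was 1 clone, and the RNA of STAT2 was not analysed here, which leaves the genotype labels unchecked.

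Type I interferons bind a receptor of 2 chains, whose kinases JAK1 and TYK2 phosphorylate STAT2. Phosphorylated STAT2 acts with IRF9 in ISGF3, the complex that binds interferon-stimulated response elements (ISREs) in the promoters of antiviral genes. T387A replaces a threonine of STAT2 with alanine, an amino acid that cannot be phosphorylated. Feedback inhibitors such as USP18 and SOCS1 are induced by the same signal and limit it.

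Values are linear, background-subtracted array intensities, and differences are log2 of T387A minus log2 of wild type, so that 1 is a 2-fold higher intensity in T387A. Intensities under 10.7 were set to 10.7, the floor, before log2 was taken, and a fold against the floor is a lower bound. With 1 array per line there was no replicate error at 4 h and no test of a single gene's difference at that time. The number of arrays limits the precision, and fewer responding cells cannot be told apart from less RNA per cell. The 2 arrays had been equalised before deposit, correlated at a Pearson r of 0.987 across the 7559 genes, and had 40.3% of probes above the floor in T387A and 40.2% in wild type. Fibrosarcoma and fibroblast markers were at like levels, with 5 of 8 above 100 on each array and a summed intensity of 8731 in T387A and 10006.9 in wild type, while THY1 and NT5E were under the floor on both. Among markers of other cell types, epithelial KRT8 and KRT18 and leukocyte CD68 and LCP1 were above 100 on both arrays, EPCAM, KRT19, CDH1, PTPRC, CDH5, VWF and KDR were under the floor on both, and none of the markers of any list was 2-fold apart.

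At 4 h of IFN-β the T387A cells held more RNA of interferon-stimulated genes than the wild-type cells, and the rest of the genes were centred on no difference. Of the 7559 genes, 58 had at least 2-fold the wild-type intensity in T387A (0.767%) and 16 were lower by 2-fold or more (0.212%). Genes higher by any amount in T387A were 3822, or 50.6%, and the corresponding shares were 55.2% on the 0 h arrays, 47.6% on the 8 h arrays and 46.8% on the 24 h arrays. The median difference was 0.003 with an SD of 0.287 over genes. At a threshold of 1.5-fold, 180 genes were higher (2.38%) and 139 lower (1.84%), and with an offset of 16 added in place of the floor 29 were higher and 0 lower at 2-fold. The same count between single arrays of the lines gave 18 genes higher (0.238%) and 21 lower (0.277%) of 7576 at 0 h. It gave 24 higher (0.318%) and 16 lower (0.212%) of 7552 at 8 h, and 37 higher (0.486%) and 39 lower (0.512%) of 7613 at 24 h. The 4 h arrays therefore had the largest excess of higher over lower genes among the 4 times.

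The imbalance was greatest among bright genes. Of the 1656 genes whose brighter array lay between 50 and 100, 20 were at least 2-fold higher in T387A and 15 were lower. Between 100 and 300 the counts were 19 and 1 of 2498 genes, between 300 and 1000 they were 12 and 0 of 2177, and above 1000 they were 7 and 0 of 1228. With 100 in place of 50 as the minimum intensity, 38 genes were higher and 1 was lower at 4 h. The same minimum gave 1 and 1 on the 0 h arrays, 14 and 3 on the 8 h arrays, and 11 and 5 on those of 24 h.

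**Figure D1:**
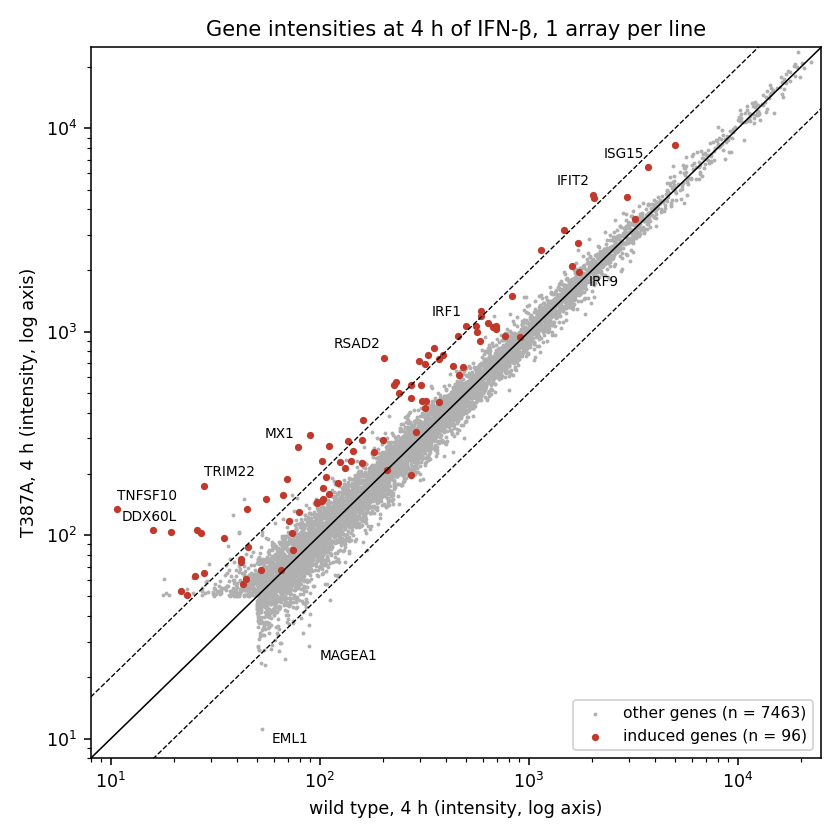
Intensity of each of the 7559 genes on the T387A 4 h array (vertical, log axis) against the wild-type 4 h array (horizontal, log axis), with values under the floor drawn at 10.7. Red points are the 96 induced genes that reached 50, grey points the 7463 others, the solid line marks equality and the dashed lines 2-fold differences. Of the red points 94 lie above the line of equality, and the grey points above 300 stay within the 2-fold lines.

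Of the 58 higher genes, 38 belonged to the induced genes, a group chosen without the 4 h arrays as those at least 2-fold over 0 h at both 8 h and 24 h in both lines. The other 20 did not, and none of the 16 lower genes did. The 38 were brighter, with a median higher intensity of 299.35 and 33 of them at 100 or more, while the 20 had a median of 62.05 and 5 at 100 or more. All 38 were also above wild type at 8 h and 35 were at 24 h. Of the 20, 16 were above wild type at 8 h and 9 at 24 h. Of the 58 genes, 19 carried other probes on the array. The 14 such probes that reached 50 on either 4 h array, in 9 genes, were all higher in T387A, 10 of them at least 2-fold. A probe of each of OAS1, OAS2, OASL and POU3F2 reached 50 only in T387A, so its direction was partly set by this rule. The rest of the 14 reached 50 on both arrays. Among the dimmer other probes, that of SSBP3 was lower in T387A, with a difference of -0.32. The remaining dim probes were higher in T387A or under the floor on both arrays.

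The largest difference was that of TNFSF10, which encodes TRAIL, a ligand that triggers cell death through its receptors. Its intensity at 0, 4, 8 and 24 h was -6.9, 134.1, 376.6 and 111.9 in T387A, and -6.4, 8.4, 105.5 and 53.4 in wild type. Wild type was under the floor at 4 h, which makes T387A at least 12.5-fold higher at that time. The T387A level at 4 h was already above the wild-type level at 8 h.

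DDX60L and its neighbour DDX60, which encode related helicases, were among the 10 largest differences. DDX60L stood at 0.9, 105.4, 148.2 and 56.8 in T387A and at -4.1, 15.9, 65.8 and 43.0 in wild type at 0, 4, 8 and 24 h, a 4 h difference of 2.73. DDX60 stood at 19.1, 104.1, 295.5 and 281.6 in T387A and at 21.0, 19.4, 186.2 and 242.9 in wild type, a 4 h difference of 2.42. At 4 h wild-type DDX60 was thus still at its untreated level, while in T387A it was 5.45 times its own 0 h level.

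TRIM22, a ubiquitin ligase that restricts viruses, had 175.2 in T387A and 28.0 in wild type at 4 h, a difference of 2.65. CXCL10, a chemokine that draws activated T cells, had 106.5 in T387A and 25.9 in wild type, a difference of 2.04. For CXCL10 the lines remained about as far apart later, with 480.3 in T387A and 120.9 in wild type at 8 h and 373.6 and 122.4 at 24 h. TNFSF13B, the B-cell survival factor BAFF, had 310.0 in T387A and 89.4 in wild type at 4 h, a difference of 1.79 that was 1.48 at 8 h and 0.55 at 24 h. Its other probe was closer between the lines at 4 h, with 180.8 in T387A and 89.2 in wild type, a difference of 1.02. MX1, a GTPase that blocks influenza viruses, had 269.7 in T387A and 78.4 in wild type, a difference of 1.78.

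The promoters of 6 of these genes are shown because they hold the interferon response element that ISGF3 binds and because their genes are among the 10 largest differences. Each is the RefSeq sequence from 250 bases before to 50 bases after the gene's start on GRCh38.p14, 5′ to 3′ on the gene's strand, and capitals mark matches to the ISRE core GAAANNGAAA or its reverse complement TTTCNNTTTC.
TNFSF10 (chr3:172523381-172523680, minus strand): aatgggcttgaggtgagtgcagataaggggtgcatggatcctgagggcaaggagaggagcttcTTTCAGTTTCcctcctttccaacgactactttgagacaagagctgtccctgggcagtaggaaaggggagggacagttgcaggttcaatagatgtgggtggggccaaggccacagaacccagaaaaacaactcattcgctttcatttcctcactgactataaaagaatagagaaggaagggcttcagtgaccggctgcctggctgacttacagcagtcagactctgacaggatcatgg
DDX60L (chr4:168480443-168480742, minus strand): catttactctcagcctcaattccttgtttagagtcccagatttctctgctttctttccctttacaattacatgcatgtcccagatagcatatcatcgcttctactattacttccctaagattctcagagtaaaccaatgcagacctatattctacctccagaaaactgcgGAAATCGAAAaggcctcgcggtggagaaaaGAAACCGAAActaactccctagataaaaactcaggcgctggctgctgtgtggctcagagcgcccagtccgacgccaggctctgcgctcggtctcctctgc
DDX60 (chr4:168318703-168319002, minus strand): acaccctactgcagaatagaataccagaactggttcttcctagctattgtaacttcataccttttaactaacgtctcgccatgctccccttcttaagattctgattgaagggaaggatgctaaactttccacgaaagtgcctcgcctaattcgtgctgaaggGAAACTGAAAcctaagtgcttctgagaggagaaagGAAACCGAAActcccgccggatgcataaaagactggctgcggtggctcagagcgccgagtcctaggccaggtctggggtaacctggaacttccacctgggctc
CXCL10 (chr4:76023448-76023747, minus strand): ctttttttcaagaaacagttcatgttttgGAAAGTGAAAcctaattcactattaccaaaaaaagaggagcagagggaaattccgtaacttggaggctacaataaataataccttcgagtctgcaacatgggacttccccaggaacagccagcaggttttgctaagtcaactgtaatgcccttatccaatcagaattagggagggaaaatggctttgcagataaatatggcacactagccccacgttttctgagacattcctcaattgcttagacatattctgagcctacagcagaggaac
TNFSF13B (chr13:108269379-108269678, plus strand): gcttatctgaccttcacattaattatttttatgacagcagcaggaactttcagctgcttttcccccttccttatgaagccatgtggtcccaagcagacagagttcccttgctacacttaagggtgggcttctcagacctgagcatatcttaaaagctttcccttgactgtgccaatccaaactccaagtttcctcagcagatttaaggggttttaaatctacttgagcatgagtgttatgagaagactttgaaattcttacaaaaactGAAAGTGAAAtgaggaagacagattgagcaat
MX1 (chr21:41420308-41420607, plus strand): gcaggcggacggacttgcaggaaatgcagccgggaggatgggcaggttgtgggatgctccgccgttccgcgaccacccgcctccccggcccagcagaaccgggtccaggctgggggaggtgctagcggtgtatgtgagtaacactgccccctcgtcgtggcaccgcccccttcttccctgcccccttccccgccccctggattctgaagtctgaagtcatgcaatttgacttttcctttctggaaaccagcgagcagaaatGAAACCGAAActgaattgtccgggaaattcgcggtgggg
The match of TNFSF10 ran on the opposite strand and began 187 bases before the start. DDX60L had 2 matches, beginning 80 and 50 bases before its start, and DDX60 had 2, at 88 and 53 bases before. That of CXCL10 began 221 bases before the start, while those of TNFSF13B and MX1 lay after the start, at base 19 and base 12 of the transcript.

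Of the 58 higher genes, 40 had a promoter in the RefSeq table, and 19 of these (47.5%) held an ISRE core on either strand. None of the 14 promoters of lower genes did. The share was 3.0% (189 of 6295) among the promoters of genes at 50 or more and 3.65% (996) among all 27305 promoters. By response the matches were in 18 of 27 promoters (66.7%) of genes that were higher and induced, and in 1 of 13 (7.69%) of those that were higher and not induced. The element TTCNNNGAA, the gamma-activated sequence, which reads the same on both strands, was in 6 of the 40 promoters (15%), against 6.35% of genes at 50 or more, and in 14 of all promoters a match to it overlapped an ISRE match. Among the induced genes the 41 with an ISRE match had a median 4 h difference of 0.99, 20 of them at least 2-fold, and the 41 with a promoter but no match had a median of 0.67, 10 of them at least 2-fold. A match describes the letters of this window and is no evidence of binding.

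**Figure D2:**
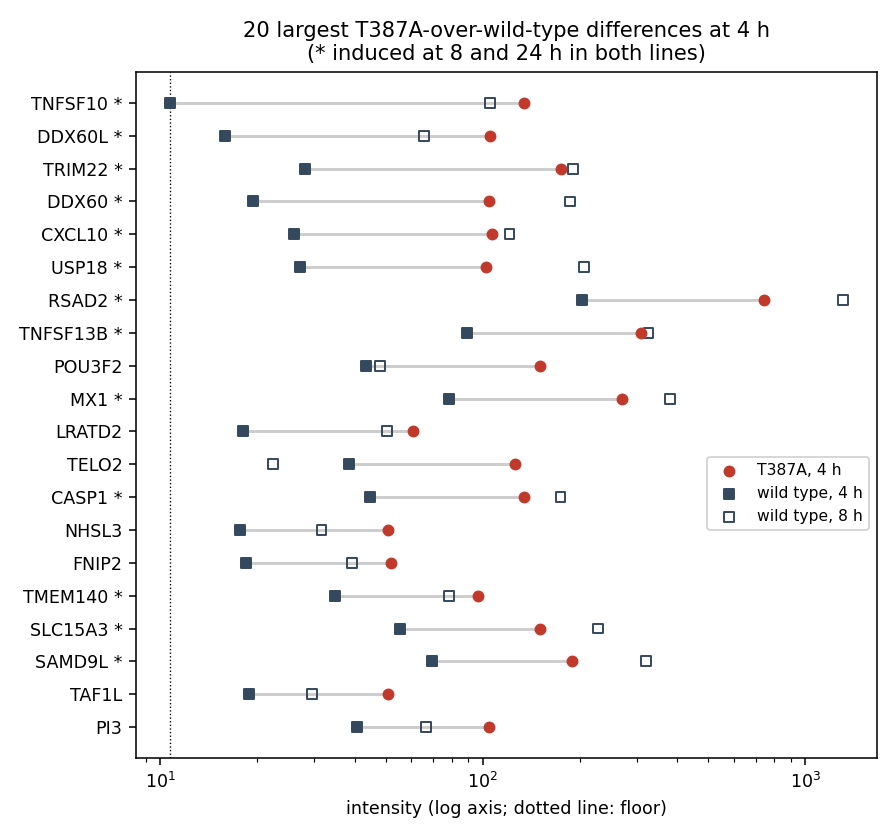
Intensity (log axis) of the 20 genes with the largest positive 4 h differences, with T387A at 4 h as red circles, wild type at 4 h as filled squares and wild type at 8 h as open squares. Asterisks mark induced genes and the dotted line the floor of 10.7. TNFSF10 and DDX60L at 4 h in T387A lie to the right of wild type at 8 h, while RSAD2, MX1 and USP18 lie between the 2 wild-type times.

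The 109 induced genes, 0.798% of the 13656 genes above the floor on any array, show the pattern without use of the 4 h arrays in their choice. On the 4 h arrays 105 of them exceeded wild type, with a median difference of 0.84 (a ratio of 1.79), quartiles of 0.54 and 1.18 and a range of -0.46 to 3.65. Of the 109, 75 were at least 1.5-fold higher and 42 at least 2-fold, while of all 13656 genes 43.2% were higher by any amount and 1.63% at least 2-fold. Of the 96 that reached 50, 94 exceeded wild type, and of the 7463 other genes at 50 or more 49.95% did. These other genes had a median difference of 0 and a middle 95% of -0.53 to 0.50. The median of the induced genes was alike at every brightness, at 0.87, 0.84, 0.92 and 0.79 from the dimmest class to the brightest, whereas the SD of the other genes narrowed over the same classes, with values of 0.370, 0.261, 0.194 and 0.165.

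The 4 induced genes that were not higher in T387A at 4 h were CYTH1, FST, PLAAT4 and PRPH. FST, which encodes the activin antagonist follistatin, had 197.7 in T387A and 272.7 in wild type. CYTH1, an exchange factor for ARF GTPases, had 209.8 in T387A and 210.3 in wild type, while PLAAT4 and PRPH were under 50 on both arrays.

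Set beside the other times, the difference of the induced genes was largest at 4 h. Their medians over the course were 0.12, 0.84, 0.56 and 0.22, and 68, 105, 107 and 93 of the 109 were above wild type at the 4 times. A difference of 2-fold or more in favour of T387A was held by 5, 42, 13 and 6 of them. The arrays at 0, 8 and 24 h chose these genes, so their values there are a description. Those of the 109 under the floor in both lines at 0 h have a difference of 0 there and cannot be among the 68.

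**Figure D3:**
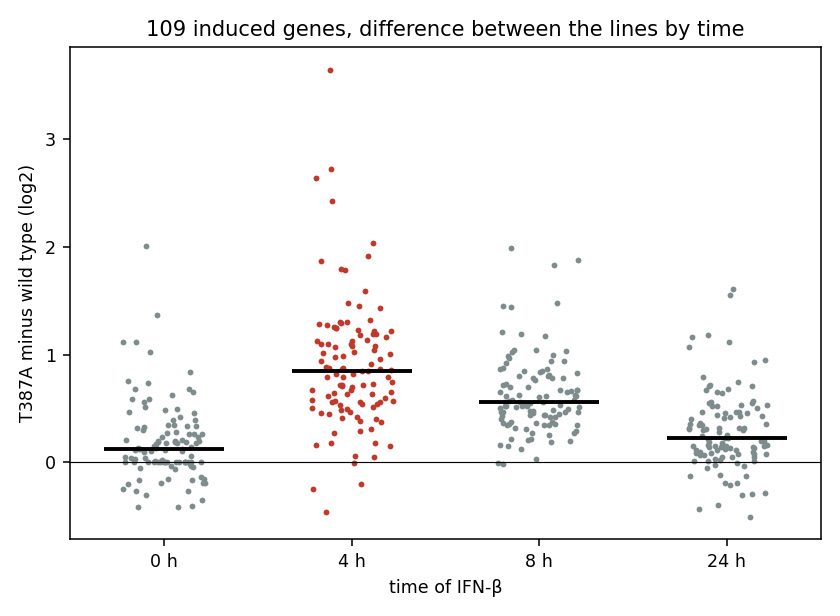
T387A minus wild type (log2, vertical) for each of the 109 induced genes at 0, 4, 8 and 24 h of IFN-β (horizontal), with the 4 h values in red and a bar at the median. The bars stand at 0.12, 0.84, 0.56 and 0.22, and at 4 h 105 points lie above 0.

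Measured from each line's own 0 h array, the induced genes had moved further by 4 h in T387A. The median fold over 0 h was 3.68 in T387A and 2.42 in wild type, and 84 of the 109 were at least 2-fold over 0 h in T387A and 63 in wild type, where the backgrounds over 13656 genes were 1.79% and 2.41%. The log2 response was larger in T387A for 97 genes, with a median difference of 0.61 between the responses. For genes under the floor at 0 h in both lines, such as TNFSF10, DDX60L, CXCL10 and RSAD2, this equals the 4 h difference and adds no separate measure. For MX1 and SAMD9L only wild type was under the floor at 0 h, so its fold is a lower bound. As a share of the linear rise between 0 and 8 h, the median gene had covered 38.0% by 4 h in T387A (quartiles 27.9% and 51.9%) and 27.3% in wild type (16.7% and 36.7%), and the share was larger in T387A for 93 genes.

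On the wild-type time course, the T387A level at 4 h lay between the wild-type levels at 4 and 8 h for 87 of the 109 genes. It was at or above the wild-type 8 h level for 18 genes and at or below the wild-type 4 h level for 4. Among the 18 were TNFSF10, DDX60L, IFIT2, BATF2, HELZ2, IRF1, TRIM21, IRF9 and REC8. For REC8 wild type itself fell from 289.0 at 4 h to 205.5 at 8 h, so its place among the 18 does not put T387A ahead. RSAD2, the antiviral enzyme viperin, was among the 87, with 743.5 in T387A against 203.6 in wild type at 4 h and 1311.1 in wild type at 8 h. By 4 h it had covered 34.7% of its 8 h rise in T387A and 14.8% in wild type.

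Genes that peak early and genes that climb to 24 h both showed the difference. The 50 induced genes whose level was lower at 24 h than at 8 h in both lines had a median 4 h difference of 0.87, 20 of them at least 2-fold. The 35 that were higher at 24 h than at 8 h in both lines had a median of 0.67, 11 of them at least 2-fold, and the 24 that went opposite ways had a median of 0.95, 11 of them at least 2-fold.

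**Figure D4:**
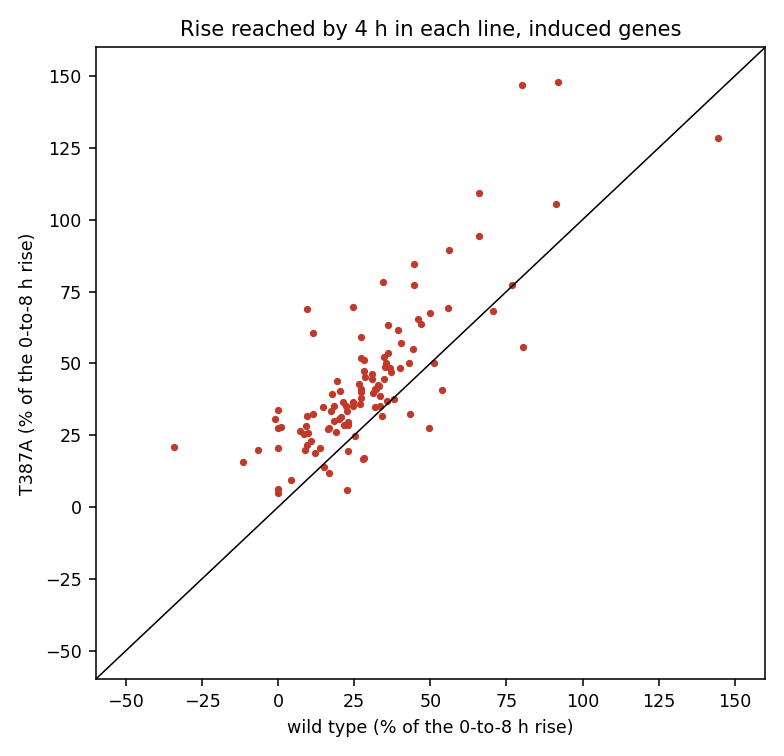
Share of the linear rise between 0 and 8 h that each of the 109 induced genes had covered by 4 h, in T387A (vertical, %) against wild type (horizontal, %), with a line of equality. Above the line lie 93 genes, and values over 100% are genes whose 4 h level exceeded that at 8 h.

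By role, the genes of receptor and JAK-STAT signalling were close to equal in the lines at 4 h. Of the 6 genes of this list, 5 were above wild type, none was 1.5-fold apart and the median difference was 0.11. Of these, 1 was at least 2-fold over 0 h at 4 h in T387A and 1 in wild type. IFNAR1, a chain of the receptor, had 81.4 in T387A and 80.2 in wild type, and JAK1 had 137.8 in T387A and 142.4 in wild type. TYK2, the other receptor kinase, had 440.1 in T387A and 378.5 in wild type, a difference of 0.22.

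IRF9, the DNA-binding partner of STAT2, is itself an interferon-stimulated gene and departed from most of the others. Its intensity at 0, 4, 8 and 24 h was 223.2, 1960.4, 1868.7 and 1428.7 in T387A, and 158.5, 1735.8, 1889.0 and 1877.5 in wild type. The 4 h difference was 0.18, the 8 h difference was -0.02 and the 24 h difference -0.39. Over its own 0 h level IRF9 was 8.78-fold higher at 4 h in T387A and 11.0-fold higher in wild type, and in each line the 8 h level was close to that at 4 h.

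Among other transcription factors of the response, 6 of the 7 measured were above wild type and 2 were at least 2-fold higher, with a median difference of 0.70. IRF1, a factor that binds related promoter elements, stood at 225.0, 1067.8, 798.8 and 487.8 in T387A and at 171.9, 498.6, 580.1 and 381.7 in wild type at 0, 4, 8 and 24 h. T387A peaked at 4 h and wild type at 8 h, and the 4 h difference was 1.10. BATF2, a bZIP partner of such factors, had 231.2 in T387A and 102.2 in wild type, and SP110, a nuclear body protein, had 1071.5 in T387A and 557.6 in wild type. IRF3, which is activated by phosphorylation rather than induced, had 70.5 in T387A and 87.0 in wild type, and IRF7 was under the floor on both arrays.

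Of the feedback inhibitors, 2 of the 5 measured were at least 2-fold higher, and the median of the list was 0.19. These 2, USP18 and SOCS1, reached 50 only in T387A, which partly set their direction. USP18, which binds the receptor chain IFNAR2 and removes ISG15 from proteins, had 102.0 in T387A and 27.1 in wild type at 4 h, a difference of 1.91, with 369.5 and 206.1 at 8 h. SOCS1, which blocks JAK kinases, had 76.1 in T387A and 37.3 in wild type, a difference of 1.03. The phosphatases PTPN1 and PTPN2 and the STAT inhibitor PIAS1 differed by -0.14 to 0.19.

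Of 8 listed genes of viral RNA sensing, 5 reached 50. All 5 were above wild type, 3 at least 2-fold, with a median of 1.19. Of these 3, DHX58 and TLR3 reached 50 only in T387A, which partly set their direction. RIGI, which detects viral RNA ends, had 369.6 in T387A and 161.5 in wild type. DHX58 (LGP2), a regulator of these sensors, had 63.1 in T387A and 25.2 in wild type, and TLR3, an endosomal receptor for double-stranded RNA, had 53.4 in T387A and 21.6 in wild type. IFIH1 (MDA5), a sensor of long double-stranded RNA, had 549.5 in T387A and 303.6 in wild type, a difference of 0.86. Of the 3 DNA sensors measured AIM2, which builds an inflammasome on DNA, was apart the most, with 547.1 in T387A and 225.9 in wild type, while STING1 had 211.7 in T387A and 181.4 in wild type.

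**Figure D5:**
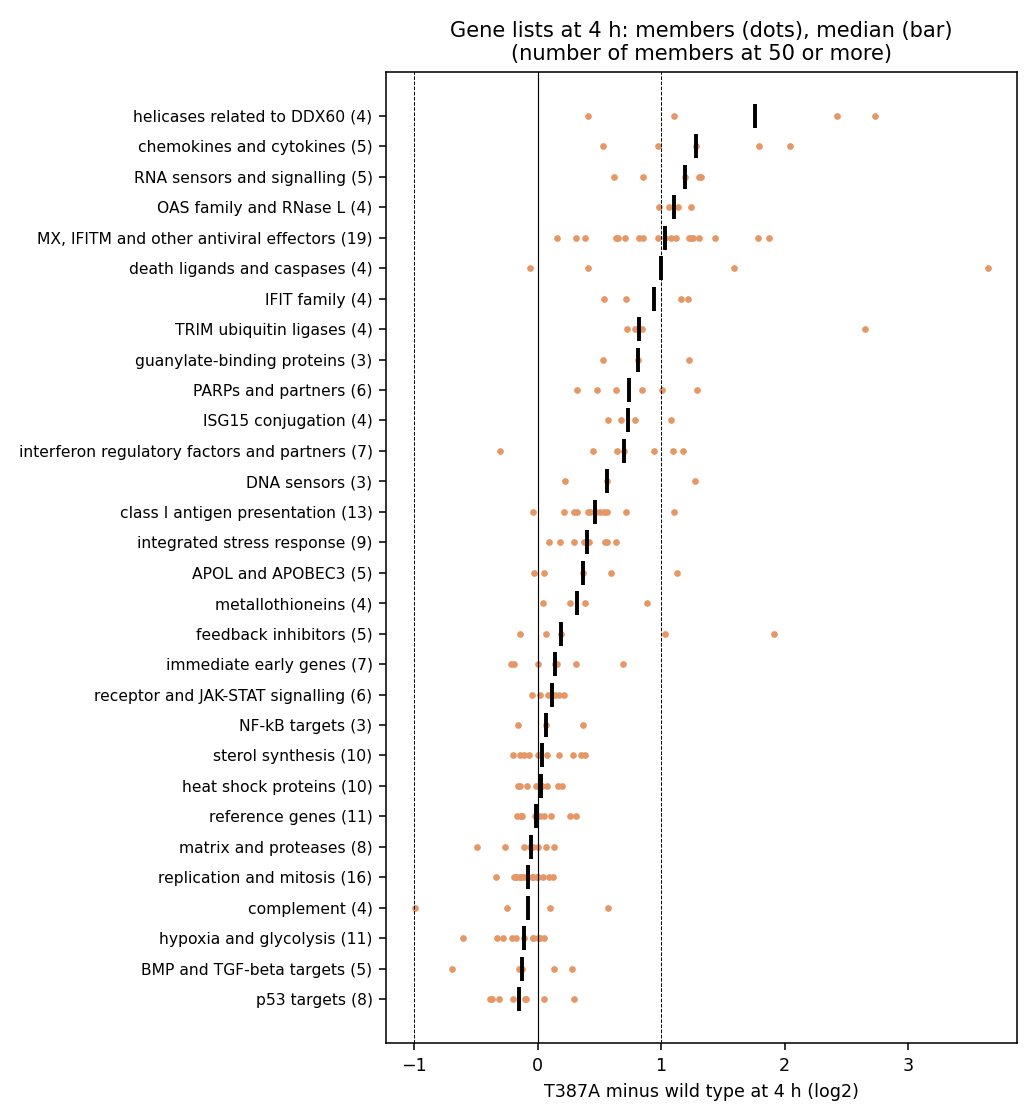
T387A minus wild type at 4 h (log2, horizontal) for the members at 50 or more of 30 gene lists, ordered by median, with members as dots, medians as bars and the number of members in brackets. Dashed lines mark 2-fold. Lists of interferon-stimulated genes stand at the top, with medians up to 1.76. That value belongs to the 4 helicases related to DDX60, of which DDX60 and DDX60L reached 50 only in T387A. Entry through T387A alone partly set this median. The lists of reference genes, heat shock proteins and sterol synthesis stand at medians of -0.01, 0.03 and 0.04.

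The effector genes that block viral growth made up the largest group. All 19 measured members of the MX, IFITM and other effector list were above wild type, 10 at least 2-fold, and the list's median was 1.03, where the median over all 7559 genes was 0.003. Besides RSAD2 and MX1, SAMD9L, a restriction factor for poxviruses, had 188.6 in T387A and 69.7 in wild type, and MX2, which acts on HIV, had 273.5 in T387A and 110.8 in wild type. EIF2AK2, the kinase PKR that halts translation, had 995.4 in T387A and 562.5 in wild type. The smallest differences of this list included genes with high untreated levels, but not every such gene was close between the lines. IFITM3, which blocks virus entry, had 3602.5 in T387A and 3222.5 in wild type, a difference of 0.16, and BST2 (tetherin) had 950.1 in T387A and 767.0 in wild type, a difference of 0.31. IFITM2 differed by 0.64 at 4 h, although its 0 h levels were 2683.1 in T387A and 2286.4 in wild type. Probes of close relatives such as the IFITM, IFIT and HLA genes can share signal, and this was not tested.

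The genes of the IFIT proteins, which bind viral RNA, were above wild type in 4 of 4, with a median of 0.94. IFIT2 had 4715.2 in T387A and 2024.6 in wild type, and IFIT3 had 4557.4 in T387A and 2040.8 in wild type, differences of 1.22 and 1.16. IFIT1 had 8261.5 in T387A and 5020.9 in wild type, a difference of 0.72 at 4 h, where the 0 h levels were 149.0 and 167.4 in these lines. IFIT5, much dimmer, had 150.0 in T387A and 103.4 in wild type, a difference of 0.54. OAS1, OAS2 and OAS3, enzymes that make the second messenger that activates RNase L, differed by 1.07, 1.13 and 0.99, and their relative OASL, which lacks that activity, by 1.24. OAS2 had 2512.0 in T387A and 1144.8 in wild type at 4 h, and 62.3 and 71.3 in these lines at 0 h. OASL was an exception at baseline, with 46.0 in T387A and 11.4 in wild type at 0 h, so that its fold over 0 h at 4 h was smaller in T387A (18.2) than in wild type (31.0).

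ISG15, a ubiquitin-like protein coupled to other proteins, had 6423.0 in T387A and 3711.5 in wild type at 4 h, a difference of 0.79. The difference was 0.27 at 8 h and 0.13 at 24 h, when ISG15 was at 17985.8 in T387A and 16480.1 in wild type. UBA7 and UBE2L6 of its conjugation pathway differed by 0.57 and 0.67, and HERC6, listed with them, by 1.08. HERC5 was under 50 on both arrays, with 14.2 in T387A and 11.8 in wild type, a difference of 0.27. The PARP list, mostly enzymes that attach ADP-ribose, was above wild type in 6 of 6 genes with a median of 0.74. PARP14 had 563.6 in T387A and 231.1 in wild type, and ZC3HAV1, a zinc finger protein that targets viral RNA, had 1235.8 in T387A and 992.4 in wild type.

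Genes for antigen presentation differed less. Of the 13 measured members of the class I list, 12 were above wild type, 1 was at least 2-fold higher and the median was 0.46. TAP1, the peptide transporter, was that gene, with 1263.0 in T387A and 588.1 in wild type. PSMB9, a subunit of the immunoproteasome, had 230.9 in T387A and 140.2 in wild type, and B2M, the light chain of class I molecules, had 5787.3 in T387A and 4723.9 in wild type. ERAP2, a peptide-trimming enzyme, had 2634.8 in T387A and 2701.2 in wild type. At 8 h the median of this list was 0.46 and at 24 h it was 0.28, and at 4 h 2 of its members were at least 2-fold over 0 h in T387A and 1 in wild type.

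Cell death and inflammatory genes were split. Besides TNFSF10, CASP1, the caspase that processes interleukin-1β, had 134.4 in T387A and 44.6 in wild type at 4 h, where the 0 h levels were 80.1 and 77.7 in these lines. Its other probe at 50 or more was closer between the lines, with 119.1 in T387A and 67.5 in wild type, a difference of 0.82. The TRAIL receptor TNFRSF10B had 1051.7 in T387A and 1097.1 in wild type. CCL5, a chemokine, had 88.7 in T387A and 36.5 in wild type, and IL1B had 103.9 and 52.9. Both were already higher in T387A at 0 h, CCL5 with 71.2 against 38.6 in wild type and IL1B with 248.8 against 136.7. IL1B was below its 0 h level at 4 h in both lines, at 0.418 of it in T387A and 0.387 in wild type. The NF-κB targets had a median of 0.07 in 3 measured genes.

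Lists of reference, heat shock, sterol and cell cycle genes had medians near 0 at 4 h. The 11 reference genes had a median of -0.01, the 10 heat shock genes 0.03, the 10 sterol synthesis genes 0.04 and the 16 replication and mitosis genes -0.07, and none of their members was 1.5-fold apart. GAPDH, a glycolytic enzyme, had 12992.1 in T387A and 13143.5 in wild type. The hypoxia and glycolysis list was above wild type in 2 of 11 genes with a median of -0.11, and its BNIP3, a mitophagy receptor, had 1218.0 in T387A and 1849.7 in wild type.

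Some 4 h differences had much the same size at the other times. The 9 measured genes of the integrated stress response, which adapts cells to amino acid shortage, were all above wild type at 4 h, none of them 2-fold, with medians over the course of 0.50, 0.40, 0.37 and 0.57. ASNS, asparagine synthetase, stood at 2100.9, 1476.4, 1395.0 and 2006.2 in T387A and at 1377.6, 950.6, 901.9 and 1321.5 in wild type at 0, 4, 8 and 24 h. Its difference was 0.60 to 0.64 at every time, and both lines were lower at 4 and 8 h than at 0 h. ATF4, the transcription factor of this response, differed by 0.36, 0.42, 0.37 and 0.64 at the 4 times.

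The 16 lower genes were dim, and the brightest of them, SYNC, which encodes an intermediate filament protein of muscle, had 48.1 in T387A and 111.3 in wild type. Before treatment 13 of the 16 were also below wild type, and 15 were at 8 h and 12 at 24 h. MAGEA1, a cancer-testis antigen gene, stood at 23.4, 28.4, 36.0 and 23.2 in T387A and at 76.4, 89.1, 107.5 and 89.8 in wild type at 0, 4, 8 and 24 h, differences of -1.71, -1.65, -1.58 and -1.95. The largest negative difference, -2.24, was that of EML1, a microtubule-binding protein gene, with 11.1 in T387A and 52.6 in wild type. SERPINE2, a protease inhibitor gene, had 41.0 in T387A and 89.7 in wild type, and PPARD, a nuclear receptor gene, had 39.3 in T387A and 81.4 in wild type. None of the 5 of these genes with other probes had one that reached 50, and those dim probes were not all lower in T387A. The other probe of SYNC had 21.2 in T387A and 3.5 in wild type, that of MOSPD3 had 21.9 and 14.6 in these lines, and 1 of the 2 of PPARD had 14.4 in T387A with wild type under the floor. CD55, which protects cells from complement, was just under the threshold at 84.3 in T387A and 167.7 in wild type, a difference of -0.99, and it was within 0.15 of equality at the other 3 times.

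Higher but not induced genes included POU3F2, a neural transcription factor gene, which stood at 6.2, 149.9, 130.8 and 10.9 in T387A and at 10.4, 43.5, 48.1 and 15.3 in wild type at 0, 4, 8 and 24 h. It was thus above its 0 h level at 4 and 8 h in both lines, higher in T387A, and back near the floor by 24 h. In wild type it stayed under 50 at every time, so it entered only through T387A. TELO2, which encodes a partner of PI3K-like kinases, had 126.2 in T387A and 38.4 in wild type at 4 h and 38.2 and 22.3 at 8 h. SNORA64, a small nucleolar RNA, was the brightest of these 20 at 156.7 in T387A and 73.3 in wild type.

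At the edge of the threshold the values were continuous. Just inside stood KIAA0408 at 1.01, PARP10 at 1.01 and EDARADD at 1.02, and just outside stood OAS3 at 0.99, SAMD9 at 0.98 and IL1B at 0.97. The oligoadenylate synthetase gene OAS3 differed by 0.62, 0.99, 1.04 and 0.74 at 0, 4, 8 and 24 h.

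The other 6 arrays gave an error for a test of whether a gene's 4 h difference departed from its differences at 0, 8 and 24 h. Limma fitted time, genotype and a 4 h genotype term to all 8 arrays with 2 residual degrees of freedom, and Benjamini-Hochberg adjustment over 13656 genes called 0 genes in either direction (0%). The smallest adjusted p was 0.381 over all genes and 0.449 over the induced genes, where it was that of IRF1. At an unadjusted p under 0.05, 422 estimates were positive (3.09%) and 557 negative (4.08%), and of the 109 induced genes 18 were positive and 0 negative. The estimate was positive for 95 of the 109 with a median of 0.45, and for 6975 of all 13656 genes with a median of 0.007. IRF1 had an estimate of 0.70 ± 0.09 (SE) and DDX60 one of 2.18 ± 0.39 (limma adjusted p = 0.524). The spread in this test holds the true changes of the difference between 0, 8 and 24 h as well as array error.

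A second limma fit, of time plus genotype with 3 residual degrees of freedom, asked which genes differed between the lines over all 4 times. It also called 0 genes in either direction (0%), with a smallest adjusted p of 0.0871 for MAGEA1, whose estimate was -1.72 ± 0.09 (SE). At an unadjusted p under 0.05, 784 estimates were positive (5.74%) and 712 negative (5.21%). Of the induced genes 106 had a positive estimate with a median of 0.47, 66 of them at an unadjusted p under 0.05, and their smallest adjusted p was 0.285. When only the 7559 genes at 50 or more at 4 h entered the fit, 41 passed, 13 higher in T387A and 28 lower, among them MAGEA1, ASNS and 4 induced genes, GBP3, OAS3, OASL and SAMD9. Entry needed 50 on either 4 h array, and these arrays are part of the tested difference. MAGEA1 (28.4 in T387A, 89.1 in wild type) and GBP3 (73.4 and 41.7) entered only through the line where they were higher. The 41 are therefore no independent support for a difference. Over all 13656 genes ASNS had an estimate of 0.62 ± 0.06 (limma adjusted p = 0.285) and no 4 h departure, at 0.02 ± 0.08 (limma adjusted p = 0.979). The labels give no separate cultures of a line and time, so these p-values rest on single arrays. The spread in this second fit holds true changes of the line difference over the 4 times as well as array error.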

How the data were processed

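Total RNA of 8 U6A cultures, 1 per line and time, was extracted with Trizol, biotin-labelled and hybridised to Illumina bead arrays, per the labels' protocols. The authors deposited a single table of linear intensities. Per the submitters' processing notes they used GenomeStudio, whose version and settings the sources used here do not give. The intensities show background subtraction (28.6% at or below 0, lowest -19.9) and quantile normalisation (78.6% of ranks identical on all arrays), so no further scaling was applied and depth has no counterpart here.

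Groups came from the sample titles. Of 47315 probes, 30111 named 1 gene, 8 several and 17196 none, and the last 2 kinds were left out. The floor of 10.7 was taken from percentile 1 (-10.7, sign dropped), which exceeded the overall median of 6.1. Limma 3.58.1 (R 4.3.3), checked on simulated data, tested genes above the floor on any array at an adjusted p under 0.05. Of these, 435 had no residual spread. Python 3.11.15 with pandas 2.3.3 counted genes and matched motifs. Gene names follow the platform annotation, and promoters RefSeq (GRCh38.p14).

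The members and lists were chosen with earlier results of these data known. Named by rule were the 20 largest positive and 15 largest negative 4 h differences, up to 4 members of each of 30 lists and a few fixed genes. Others were named after their values were seen. Alternatives covered the intensity minimum, threshold, floor, probe choice, scaling, limma prior, filter and omission of the arrays of a time.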

Additional observations from a re-analysis of the deposited data

How the results depend on the processing

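The count of genes higher by 2-fold or more at 4 h, 58, was 38 with an intensity minimum of 100, 222 with a minimum of 20, 180 at 1.5-fold and 29 with an offset of 16 in place of the floor. The count of lower genes, 16, was 1, 159, 139 and 0 under the same 4 settings. The doubled floor of 21.4, the mean of a gene's probes, the probe chosen on the other 6 arrays, median centring and cyclic loess gave 50 to 58 higher and 13 to 21 lower genes. Induced genes were above wild type in 105 of 109, in 149 of 160 when 1.5-fold defined them, in 82 of 84 with the offset, and in 97 of 101 to 108 of 112 under the other set alternatives. Settings chosen after seeing the data gave 138 of 167 for genes induced in wild type alone and 86 of 88 for those at 100 or more on both 8 h arrays. The 4 h departure called 0 genes under each of its alternatives, among them the omission of both arrays of 0, 8 or 24 h. The genotype difference, 0 genes, gave 1 with the doubled floor, 7 with the offset, 2 with a trended robust prior and 41 when only genes at 50 or more at 4 h were tested. The filter behind the 41 used arrays that are part of the tested difference. For these settings the cause was not tested. Of 858 pairs of a named gene and a setting, 0 reversed and 52 moved, 41 of them under the offset. The fit of time plus genotype is itself paired by time, with 1 array of each line at each of 4 times. A block of replicate numbers could not be fitted, and no replicate could be left out, because each line and time had 1 array. Signal over background limits the genes between 50 and 100, which hold 20 of the 58 higher and 15 of the 16 lower genes.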

Other observations

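Other gene groups were compared in the same 2 arrays at 4 h. The guanylate-binding proteins, GTPases that attack intracellular pathogens, were above wild type in 3 of 3 measured genes with a median difference of 0.82, and GBP1 had 764.3 in T387A and 327.7 in wild type. The TRIM ubiquitin ligases were above wild type in 4 of 4, and TRIM5, a retrovirus restriction factor, had 383.4 in T387A and 213.8 in wild type. The APOL and APOBEC3 genes were uneven. APOL2 had 50.7 in T387A and 23.2 in wild type, and APOBEC3G, a cytidine deaminase that mutates retroviral DNA, had 145.6 and 96.3. APOBEC3B, of the same enzyme family, had 262.1 in T387A and 267.2 in wild type.

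Metallothioneins, small proteins that bind zinc, had a median of 0.32 in 4 measured genes, with MT2A at 7607.3 in T387A and 6347.1 in wild type. The p53 targets were above wild type in 2 of 8 genes with a median of -0.15, and CDKN1A, an inhibitor of the cell cycle, had 2372.5 in T387A and 2940.8 in wild type. The matrix and protease genes had a median of -0.05 in 8 genes, and MMP1, a collagenase, had 204.9 in T387A and 288.2 in wild type. None of the p53 and matrix genes was 1.5-fold apart.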
